A study of Mus musculus with 6 samples.

Results

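The tumour necrosis factor (TNF) superfamily was taken as every probe set whose Entrez Gene number maps to a Tnfsf or Tnfrsf symbol followed by a number, together with Tnf, Lta, Ltb, Ltbr, Fas, Fasl, Cd27, Cd70, Cd40 and Cd40lg. This gave 41 members among 23185 named genes, of which 16 encode ligands and 24 receptors. The remaining member, Tnfsf13os, is a non-coding transcript antisense to Tnfsf13 and is described apart from the proteins. Tnfsf12, the ligand TWEAK, was not analysed here. The levels come from 6 Affymetrix Mouse Gene 2.0 ST arrays of freshly isolated, untreated bone marrow hematopoietic stem cells (HSCs), taken from young mice by a double sort of the CD150+CD48- fraction of LSK cells (Sca-1+, c-Kit+ and free of lineage markers). 3 arrays carry RNA of wild-type (WT) mice and 3 carry RNA of Merit40-/- mice, which lack a subunit shared by the BRISC and BRCA1-A deubiquitinase complexes. The labels give neither the strain, the sex, the design of the allele nor the number of mice per array, so p-values measure the spread between these arrays, which the labels call biological replicates.

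Ligands of the superfamily are mostly trimeric type II membrane proteins that act on the surface of the cell or after being shed, and each binds 1 or a few receptors. Receptors with a death domain can assemble caspase-8 complexes, while others bind TRAF adaptors and switch on NF-kB and MAP kinase signalling through lysine-63-linked and linear ubiquitin chains. In the bone marrow the family is known for its part in the survival of lymphocytes and plasma cells, in the formation of osteoclasts and in the response of HSCs to inflammation, and CD27 is a known surface protein of HSCs and early progenitors.

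Babam1, the gene of Merit40, read 7.91, 8.04 and 8.05 in WT and 4.29, 3.87 and 4.01 in Merit40-/- HSCs on the log2 scale of the arrays, in the direction of the genotype labels. It fell by 3.94 (SE 0.14, adjusted p = 5.04e-05 in limma). All 7 measured HSC markers (Slamf1, Kit, Procr, Mecom, Hlf, Fgd5 and Hoxb5) were read above the mark of low signal explained below, with array means of 8.32 to 8.66 in WT and 8.51 to 8.75 in Merit40-/-. Of the 8 T and NK cell markers 1 was above that mark (Klrb1c), and of the 6 B and plasma cell markers 2 (Cd79b and Pax5). The 7 neutrophil markers were all above it, with array means of 8.93 to 9.21 in WT and 8.54 to 9.46 in Merit40-/-. On every array this mean was higher than that of the HSC markers. Of the 10 monocyte, macrophage and dendritic cell markers 5 were above it (Ly6c2, Cx3cr1, C1qb, C1qa and Siglech). The array means of these 10 were 5.05 to 5.18 in WT and 4.95 to 5.21 in Merit40-/-. Of the 9 stroma and endothelium markers 5 were above the mark. The 7 erythroid and megakaryocyte markers were all above it, and their array means were 7.50 to 7.69 in WT and 7.02 to 7.31 in Merit40-/-. Of these 7 genes 6 were lower, and 3 (42.9%) had an unadjusted p under 0.05, against 4.22% of all genes, but none passed the adjusted threshold in limma. The part of these cells in the members' differences was not tested. Merit40-/- replicate 1 stood apart by its skeletal muscle markers, with a mean of 8.96 over 8 genes against 4.66 to 5.11 on the other arrays. Merit40-/- replicate 3 stood apart by the mean of its osteoclast markers, at 5.75 over 8 genes against 4.46 to 4.63 on the other arrays. Ctsk (7.94), Acp5 (7.91), Mmp9 (6.68), Ocstamp (5.02) and Atp6v0d2 (4.05) were highest on this array. Calcr (3.51) was lowest on it, and Dcstamp (3.58) and Itgb3 (7.33) lay within the range of the other arrays. In bulk RNA of this kind, fewer cells of a type and less RNA per cell cannot be told apart.

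The upstream sequences of 5 members are shown because the results below turn on these genes. Tnfsf13, Tnfrsf13b and Tnfrsf18 are the 3 members with the smallest p-values, and Cd27 and Ltb are the receptor and the ligand with the highest array readings. Each line gives the 250 bases before the first RefSeq start of the gene, 5′ to 3′ on the strand of the gene, in assembly GRCm38.p6. The windows are chr11:69685555-69685804 on the minus strand (Tnfsf13), chr11:61126505-61126754 on the plus strand (Tnfrsf13b), chr4:156026072-156026321 on the plus strand (Tnfrsf18), chr6:125237028-125237277 on the minus strand (Cd27) and chr17:35194257-35194506 on the plus strand (Ltb). Capitals mark a GC box (GGGCGG, the letters bound by Sp1) in Tnfsf13 and a match to the NF-kB consensus in Ltb, both found on the opposite strand. A TATA box (TATAAA) and an ETS core motif (CCGGAAG) were also searched on both strands and matched none of these 5 windows.
Tnfsf13: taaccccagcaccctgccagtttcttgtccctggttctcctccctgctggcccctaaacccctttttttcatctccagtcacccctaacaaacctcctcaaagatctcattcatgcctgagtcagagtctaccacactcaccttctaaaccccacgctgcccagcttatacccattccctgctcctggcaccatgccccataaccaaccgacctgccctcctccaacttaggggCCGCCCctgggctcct
Tnfrsf13b: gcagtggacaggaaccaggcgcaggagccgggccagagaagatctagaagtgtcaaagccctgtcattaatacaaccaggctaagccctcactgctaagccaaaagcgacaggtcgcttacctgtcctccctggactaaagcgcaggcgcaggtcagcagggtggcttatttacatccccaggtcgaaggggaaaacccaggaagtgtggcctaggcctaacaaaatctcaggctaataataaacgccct
Tnfrsf18: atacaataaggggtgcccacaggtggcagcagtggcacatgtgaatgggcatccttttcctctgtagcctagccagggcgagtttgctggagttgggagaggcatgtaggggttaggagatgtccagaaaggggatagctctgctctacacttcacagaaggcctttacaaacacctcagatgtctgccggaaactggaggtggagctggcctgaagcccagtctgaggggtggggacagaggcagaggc
Cd27: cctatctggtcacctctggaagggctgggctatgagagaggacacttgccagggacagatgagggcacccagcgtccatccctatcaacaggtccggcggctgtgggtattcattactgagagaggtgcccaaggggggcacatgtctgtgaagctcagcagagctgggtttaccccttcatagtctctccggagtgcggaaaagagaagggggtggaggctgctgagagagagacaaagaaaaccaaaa
Ltb: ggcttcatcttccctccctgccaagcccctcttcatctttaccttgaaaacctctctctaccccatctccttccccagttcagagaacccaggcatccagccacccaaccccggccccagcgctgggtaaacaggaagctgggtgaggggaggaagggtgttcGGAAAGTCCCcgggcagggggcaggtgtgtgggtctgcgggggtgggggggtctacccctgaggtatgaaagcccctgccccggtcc

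The promoter table held 31 of the 41 members. Among the 17 of them read above the mark in WT, the upstream 250 bases held a median of 8 CpG dinucleotides, against 15 for all 9972 named genes above the mark. Cd27 held 5, Tnfrsf18 and Tnfrsf14 held 2 each, and Ltbr, the lymphotoxin beta receptor, held 18. The 14 members below the mark held a median of 7.5, against 3 for all 7480 genes below it, with Tnfrsf11a, the receptor RANK, at 31. The medians of the members on either side of the mark thus lay closer together than those of all genes. A GC box was present in 14 of 31 members (45.2%) and in 43.4% of the windows of all 17452 named genes. A match to the NF-kB consensus was present in 2 members, Ltb and Tnfrsf8, or 6.45%, against 7.77% of all windows, and a TATA box in 6 (19.4% against 11.8%). The ETS core motif was present in 3 members (9.68% against 9.06%), namely Tnfrsf1a, Tnfrsf1b and Tnfrsf12a. These are matches of letters and not measured binding.

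The WT levels were placed against a mark of low signal, since probe sets differ in affinity and their readings are not amounts of transcript. The mark is the 95th percentile of the WT means of 1389 chemosensory receptor genes, taken as genes without expression in blood cells, and lies at 4.58. Of all named genes 54.6% were above it. In WT HSCs 24 of 41 members had a mean above the mark, among them 16 of 24 receptors and 7 of 16 ligands. 18 members were above it on all 6 arrays and 16 below it on all 6, while 7 lay on both sides. Against the 99th percentile of the same genes (6.32), 12 members stayed above, 10 receptors and the ligands Ltb and Tnfsf4.

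**Figure D1:**
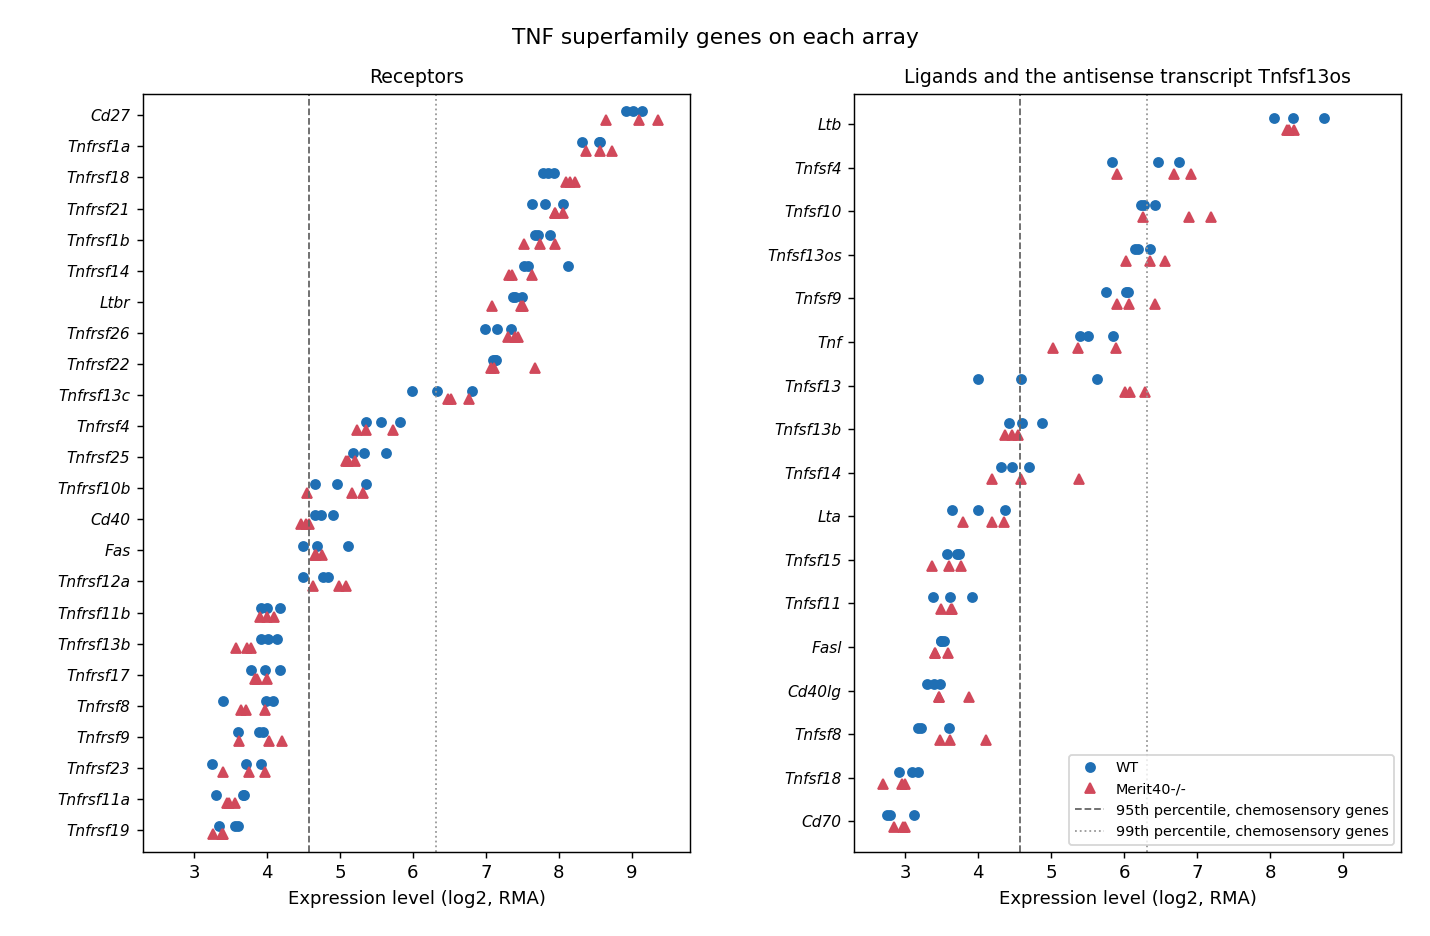
Log2 expression level (horizontal axis) of each of the 24 receptors (left) and of the 16 ligands and Tnfsf13os (right), 1 point per array, circles for WT and triangles for Merit40-/-, ordered by WT mean. The dashed and dotted lines are the 95th (4.58) and 99th (6.32) percentiles of the chemosensory receptor genes in WT; 10 receptors have a WT mean right of the dotted line, and the triangles of Tnfsf13 lie right of its circles.

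Among the receptors, the TNF and lymphotoxin receptors were all read above both marks. Tnfrsf1a, the death domain receptor of TNF and lymphotoxin alpha, read 8.56, 8.56 and 8.31 in WT and 8.73, 8.56 and 8.37 in Merit40-/-. Tnfrsf1b, the second TNF receptor, which lacks a death domain, read 7.67, 7.88 and 7.72 and then 7.95, 7.74 and 7.53. Ltbr read 7.40, 7.38 and 7.50 and then 7.51, 7.09 and 7.48. The arrays of the genotypes overlapped for each of the 3 genes, with differences (Merit40-/- minus WT) of 0.08, -0.02 and -0.07 and SEs of 0.14 each.

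The costimulatory receptors split around the mark. Cd27, the receptor of CD70, read 9.01, 9.13 and 8.92 in WT and 9.37, 9.10 and 8.65 in Merit40-/-, so that the Merit40-/- arrays lay on both sides of the WT arrays (difference 0.02, SE 0.19). Tnfrsf14 (HVEM), the receptor of LIGHT, read 8.13, 7.53 and 7.57 and then 7.63, 7.32 and 7.36. Its difference was -0.31 (SE 0.19, adjusted p = 0.999 in limma), and with 1 array left out it ran from -0.41 (without WT replicate 2) to -0.11 (without WT replicate 1, the highest array). Tnfrsf4 (OX40), next to Tnfrsf18 on chromosome 4, read 5.82, 5.35 and 5.56 in WT and 5.24, 5.72 and 5.35 in Merit40-/-, with overlap. Tnfrsf8 (CD30) and Tnfrsf9 (4-1BB) lay below the mark on all arrays, at WT means of 3.82 ± 0.37 and 3.81 ± 0.18 (SD, n = 3).

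The costimulatory receptor Tnfrsf18 (GITR) was 1 of 3 members with an unadjusted p under 0.05. It read 7.85, 7.93 and 7.78 in WT and 8.15, 8.10 and 8.22 in Merit40-/-. All 3 Merit40-/- arrays were higher than all 3 WT arrays, and both groups were tight, at 7.86 ± 0.07 and 8.16 ± 0.06 (SD, n = 3). The difference was 0.30 (SE 0.11, 1.23-fold, 95% interval 0.04 to 0.56), with an unadjusted p of 0.0269 and an adjusted p of 0.999 in limma, so it did not pass over all genes. Its ligand gene Tnfsf18 lay below the mark on all arrays, at 3.06 ± 0.13 in WT and 2.88 ± 0.16 in Merit40-/- (SD, n = 3).

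Cd40, which signals through TRAF adaptors in B cells and antigen-presenting cells, read 4.66, 4.90 and 4.73 in WT and 4.53, 4.58 and 4.47 in Merit40-/-. Every Merit40-/- array was lower than every WT array, but all values lay close to the mark. The difference was -0.24 (SE 0.12, unadjusted p = 0.0779 and adjusted p = 0.999 in limma). Its ligand gene Cd40lg lay below the mark throughout.

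Of the other receptors with a death domain, Tnfrsf21 (DR6) was above both marks and the others had WT means between the 2 marks. Tnfrsf21 read 7.63, 7.81 and 8.06 in WT and 8.06, 7.95 and 7.95 in Merit40-/-. Tnfrsf25 (DR3) read 5.33, 5.18 and 5.63 and then 5.20, 5.09 and 5.11, a difference of -0.24 (SE 0.14). The TRAIL receptor Tnfrsf10b read 4.96, 4.66 and 5.35 in WT and 5.17, 4.54 and 5.32 in Merit40-/-, a difference of 0.02 (SE 0.24). Fas, the receptor of the death ligand Fasl, read 4.50, 4.68 and 5.11 and then 4.66, 4.75 and 4.67, and the 95% interval of its difference ran from -0.45 to 0.31.

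3 neighbouring receptor genes on chromosome 7 gave different readings. Tnfrsf26 read 7.15, 6.99 and 7.35 in WT and 7.44, 7.39 and 7.30 in Merit40-/-. Tnfrsf22, a decoy receptor of TRAIL that carries no death domain, read 7.13, 7.10 and 7.14 in WT and 7.67, 7.08 and 7.11 in Merit40-/-. The high value is that of Merit40-/- replicate 1, the array with muscle markers, which read highest for 9 members. The part of muscle RNA in these readings was not tested. Tnfrsf23, the adjacent and closely similar decoy gene, lay below the mark on all arrays at 3.63 ± 0.35 in WT (SD, n = 3). Signal shared by similar probes of these copies was not separated here, so their individual levels are uncertain. Tnfrsf11b, the soluble decoy of RANKL (osteoprotegerin), lay below the mark on all arrays at 4.03 ± 0.13 in WT and 4.0 ± 0.09 in Merit40-/- (SD, n = 3).

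Of the receptors RANK, Fn14 and TROY, only Fn14 had a WT mean above the mark. Tnfrsf11a, the receptor RANK of osteoclast precursors, read 3.69, 3.31 and 3.67 in WT and 3.45, 3.48 and 3.56 in Merit40-/-. Merit40-/- replicate 3, the array with the highest mean of osteoclast markers, was inside the WT range for this gene. All readings of Tnfrsf11a lay below the mark of low signal, and the part of osteoclast RNA in the members' readings was not tested. Tnfrsf12a (Fn14), the TWEAK receptor, read 4.49, 4.77 and 4.83 and then 4.62, 4.99 and 5.08, and Tnfrsf19 (TROY) stayed at 3.26 to 3.60 over all arrays.

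The receptors of BAFF and APRIL, which keep B cells and plasma cells alive, differed in their position. Tnfrsf13c, the BAFF receptor, was above the mark on all arrays and read 5.99, 6.33 and 6.80 in WT and 6.53, 6.49 and 6.77 in Merit40-/-. Tnfrsf17 (BCMA) was below it on all arrays, at 3.98 ± 0.20 and 3.90 ± 0.09 (SD, n = 3). Tnfrsf13b (TACI), which binds both ligands, read 4.14, 4.02 and 3.92 in WT and 3.73, 3.57 and 3.78 in Merit40-/-. All Merit40-/- arrays were lower than all WT arrays, yet every value was below the mark of low signal. The difference was -0.33 (SE 0.12, 95% interval -0.61 to -0.05), with an unadjusted p of 0.0260 and an adjusted p of 0.999 in limma.

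Among the ligands, Tnfsf13 (APRIL), a secreted ligand that binds TACI and BCMA and supports plasma cells, had the largest difference of all members. It read 5.63, 4.0 and 4.59 in the 3 WT arrays and 6.02, 6.29 and 6.08 in the 3 Merit40-/- arrays. The groups did not overlap, with a gap of 0.39 between the highest WT and the lowest Merit40-/- array. The WT arrays were scattered over 1.63 and the Merit40-/- arrays over 0.27, and the WT SD was equalled or exceeded by only 105 of 23185 genes (0.453%). WT replicate 2 was below the mark of low signal and replicate 3 at it, so part of the WT readings cannot be told from low signal. The level was 4.74 ± 0.82 in WT and 6.13 ± 0.14 in Merit40-/- HSCs (SD, n = 3). The difference was 1.39 (SE 0.35, 95% interval 0.57 to 2.21), with an unadjusted p of 0.00431 and an adjusted p of 0.999 in limma, and 69 genes had a smaller p. In an exact 2-sided permutation test over the 6 arrays p was 0.1, below which a design of 3 against 3 cannot go. With WT replicate 1 left out the difference was 1.84 (adjusted p = 0.293 in limma), and with WT replicate 2 left out it was 1.02 (adjusted p = 0.996 in limma).

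Tnfsf13 shares its RefSeq locus with other transcripts. Tnfsf13os, which runs antisense across it, read 6.19, 6.35 and 6.15 in WT and 6.03, 6.57 and 6.35 in Merit40-/-, with a difference of 0.09 (SE 0.16) and overlapping arrays. The joined transcript gene Tnfsfm13, which in RefSeq spans Tnfsf12 and Tnfsf13 and ends with the latter, was not analysed here. The probes of Tnfsf13 were not mapped, so a signal from the joined transcript cannot be told apart from that of Tnfsf13. Tnfsf13b (BAFF), the related ligand, read 4.60, 4.87 and 4.42 in WT and 4.37, 4.55 and 4.47 in Merit40-/-, a difference of -0.17 (SE 0.14) with overlapping arrays.

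**Figure D2:**
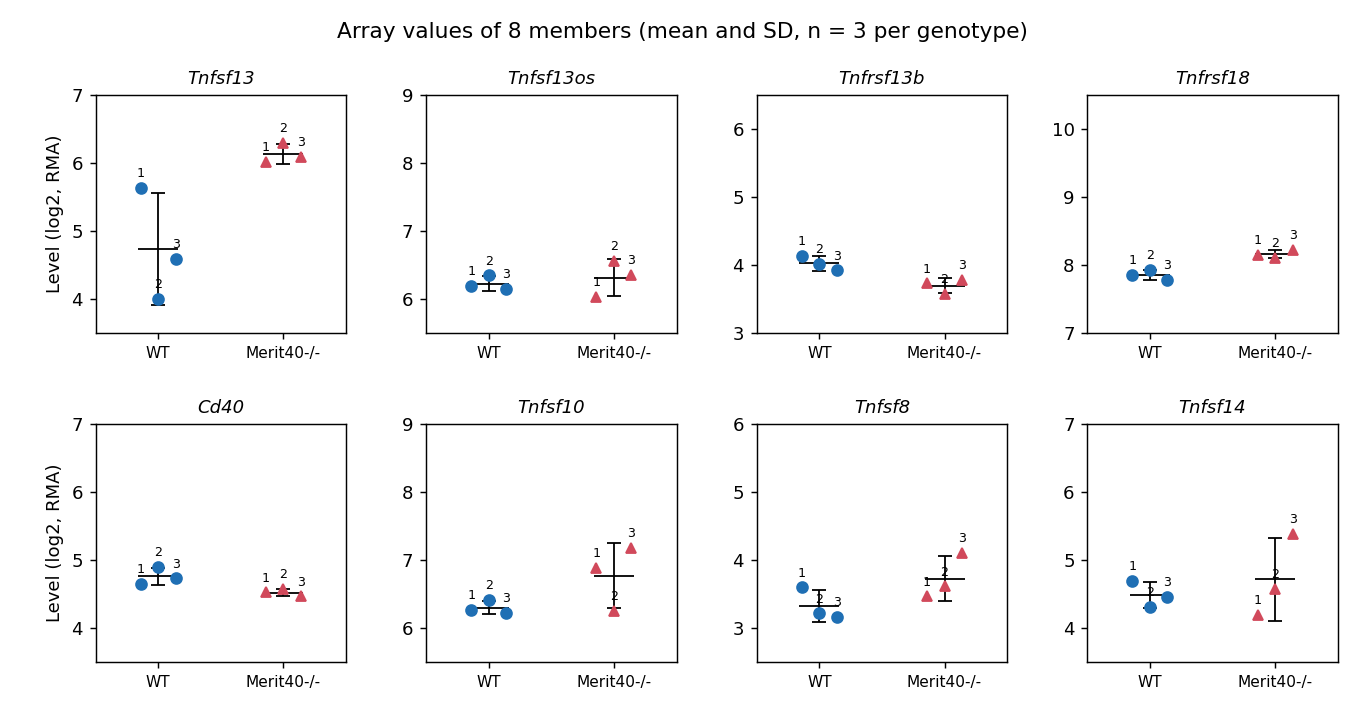
Log2 level (vertical axis, 3.5 log2 units in each panel) of 8 members in WT (circles) and Merit40-/- (triangles) HSCs, with the mean and SD of 3 arrays and the replicate number above each point. Tnfsf13 shows the scattered WT arrays (4.0 to 5.63) below the Merit40-/- arrays (6.02 to 6.29), while Tnfsf10, Tnfsf8 and Tnfsf14 reach their highest reading in Merit40-/- replicate 3.

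The lymphotoxin and TNF genes lie side by side on chromosome 17, and their readings differed from one another in position. Ltb, the membrane anchor of the lymphotoxin heterotrimer, read 8.05, 8.74 and 8.32 in WT and 8.26, 8.33 and 8.24 in Merit40-/-, above both marks. Tnf itself read 5.40, 5.84 and 5.50 and then 5.88, 5.02 and 5.37. Lta was below the mark on all arrays, at 3.64 to 4.37 in WT and 3.80 to 4.36 in Merit40-/-. The arrays of the genotypes overlapped for all 3 genes (differences -0.09, -0.16 and 0.11).

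Of the death ligands, Tnfsf10 (TRAIL) was above the mark and Fasl below it. Tnfsf10 read 6.27, 6.42 and 6.23 in WT and 6.88, 6.25 and 7.19 in Merit40-/-. Merit40-/- replicates 1 and 3 were above all WT arrays and replicate 2 was within them, so the groups overlapped. The difference was 0.47 (SE 0.22, unadjusted p = 0.0689 and adjusted p = 0.999 in limma), and it was 0.26 without Merit40-/- replicate 3 and 0.73 without Merit40-/- replicate 2 (unadjusted p = 0.00178 and adjusted p = 0.9996 in limma). Fasl stayed within 3.40 and 3.58 over all arrays.

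Costimulatory ligands, which are mainly products of activated lymphocytes and antigen-presenting cells, were mostly below the mark. Tnfsf4 (OX40L) was above it, at 6.47, 6.75 and 5.84 in WT and 6.91, 6.68 and 5.91 in Merit40-/-, and replicate 3 was lowest in both genotypes. Tnfsf9 (4-1BBL) was above it as well, at 5.74, 6.05 and 6.03 and then 5.91, 6.42 and 6.06. Cd70, the ligand of CD27, read 2.75 to 3.12 in WT and 2.84 to 2.99 in Merit40-/-, the lowest WT mean of all members. Tnfsf15 stayed at 3.36 to 3.76 over all arrays, and Tnfsf11 (RANKL), the osteoclast differentiation factor, at 3.38 to 3.91.

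Merit40-/- replicate 3 held the highest reading of 7 members (17.1%), 4 of them ligands, against 19.2% of all genes. WT replicate 3 and Merit40-/- replicate 1 each held that of 9 members (21.95%), against 17.3% and 16.1% of all genes. Tnfsf8 (CD30L) read 3.60, 3.22 and 3.17 in WT and 3.47, 3.62 and 4.11 in Merit40-/-. Tnfsf14 (LIGHT) read 4.70, 4.32 and 4.46 and then 4.19, 4.58 and 5.39, and Cd40lg read 3.39, 3.30 and 3.48 and then 3.46, 3.46 and 3.88. Without this array their differences went from 0.40 to 0.21 for Tnfsf8, from 0.21 to 0.07 for Cd40lg and from 0.23 to -0.10 for Tnfsf14, which changed sign. Without Merit40-/- replicate 1 they were 0.53 for Tnfsf8, 0.28 for Cd40lg and 0.49 for Tnfsf14. Merit40-/- replicate 3 had a mean of 3.93 over the 8 T and NK cell markers, against 3.93 to 4.24 on the other 5 arrays. This is at the low end of their range. Its mean over the 6 B and plasma cell markers was the highest, at 4.87 against 4.44 to 4.85. On this array Cd79a at 4.59 (2.87 to 3.80 on the other arrays) and Ms4a1 at 4.34 (3.15 to 3.62) were highest. Blk at 3.79 (3.82 to 4.58 on the others) and Jchain at 2.96 (3.01 to 4.29) were lowest, and Cd79b and Pax5 were neither. The neutrophil mean of this array was the lowest, at 8.54 against 8.93 to 9.46, and its osteoclast mean the highest. The part of these cell types in the ligand readings was not tested.

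Known ligands and their receptors were set side by side by their position against the mark. Of 24 pairs with both genes measured, 6 had both above the mark in WT, namely Tnf with each of its 2 receptors, Ltb with Ltbr, Tnfsf4 with Tnfrsf4, Tnfsf10 with Tnfrsf10b and Tnfsf13b with Tnfrsf13c. In 9 pairs only the receptor was above it, as for Cd27 without Cd70, Tnfrsf18 without Tnfsf18 and Tnfrsf14 without Tnfsf14. In 6 pairs only the ligand was, among them Tnfsf13 with Tnfrsf13b and with Tnfrsf17, and Tnfsf9 with Tnfrsf9. The remaining 3 pairs were below the mark on both sides, among them Tnfsf11 with Tnfrsf11a. A reading below the mark does not show that a transcript is absent.

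Neighbouring members on a chromosome were read on the same side of the mark in some clusters and not in others. Cd27, Ltbr and Tnfrsf1a, with 1 protein-coding gene between each in the RefSeq order of chromosome 6, were all above both marks. On chromosome 4 the adjacent genes Tnfrsf1b and Tnfrsf8 were read above and below the mark. On chromosome 1, of the adjacent Tnfsf4, Tnfsf18 and Fasl only Tnfsf4 was above it, and on chromosome 17, of the adjacent Tnfsf9, Cd70 and Tnfsf14 only Tnfsf9 was.

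Between the genotypes, 0 of 41 members passed the adjusted threshold of 0.05 in limma, where 1 of 23185 genes did (0.00431%), namely Babam1. At an unadjusted p under 0.05 there were 3 members (7.32%), against 4.22% of all genes. They were Tnfsf13 and Tnfrsf18, which were higher (2.26% of all genes), and Tnfrsf13b, which was lower (1.96% of all genes). For 4 members (9.76%), Cd40 being the fourth, all Merit40-/- arrays lay on 1 side of all WT arrays, which held for 9.05% of all genes. Of these 4, Tnfsf13 and Tnfrsf18 were higher (4.84% of all genes) and Tnfrsf13b and Cd40 lower (4.22% of all genes). With 1 array left out, groups of 2 and 3 arrays were apart for 5 to 12 members (12.2% to 29.3%). The same held for 16.9% to 19.6% of all genes. The count of members was highest without Merit40-/- replicate 1. It was 10 without WT replicate 3, 9 without WT replicate 2 and 7 without Merit40-/- replicate 2. In Merit40-/- HSCs 21 members were higher and 20 lower, with a median difference of 0.02, compared with 0.01 over all genes. The median size of the difference regardless of sign was 0.15 for the members and 0.11 for all genes. For the members above the mark it was 0.16, with 0.11 for all genes above the mark, and for those below it 0.098, with 0.099 for all genes below the mark. The median WT SD was 0.19 for the members and 0.16 for all genes.

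The 16 ligands had 9 members higher and 7 lower (median 0.08), and the 24 receptors had 11 higher and 13 lower (median -0.03). 35 members differed by less than 0.25 and 6 by at least 0.30 in either direction, the latter being Tnfsf13, Tnfsf10, Tnfsf8, Tnfrsf18, Tnfrsf14 and Tnfrsf13b. The 95% interval lay within 2-fold in both directions for 40 of 41 members, Tnfsf13 being the exception. The same held for 22339 of all 23185 named genes. The median half-width of the interval was 0.36 for the members and 0.34 for all genes. For the members below the mark, log2 values are compressed, so a larger change of the transcript would be read as a small difference.

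**Figure D3:**
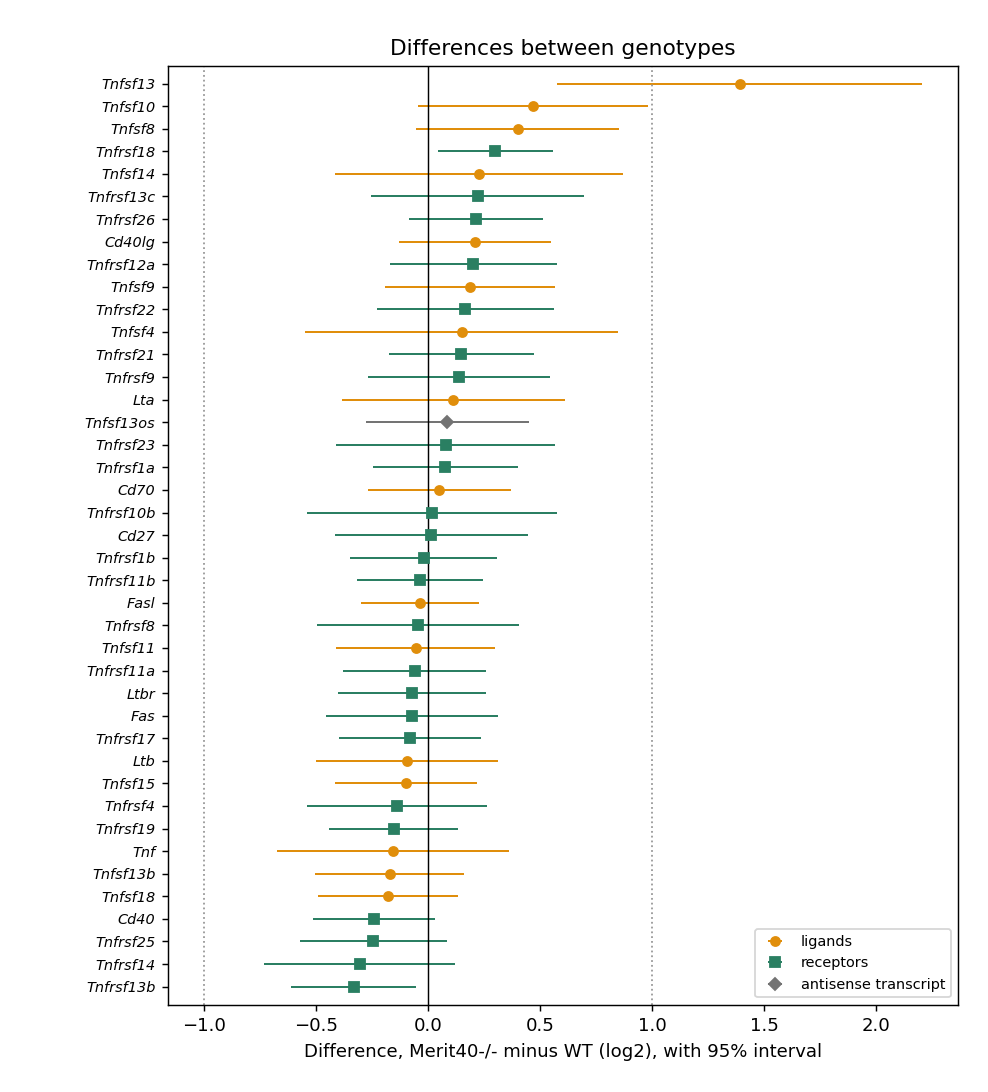
Difference between Merit40-/- and WT HSCs (horizontal axis, log2) of all 41 members with the 95% interval of limma, circles for ligands, squares for receptors and a diamond for Tnfsf13os. Dotted lines mark 2-fold in either direction; the interval of Tnfsf13 (0.57 to 2.21) alone reaches beyond them, and the other 40 lie within.

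The genes downstream of the receptors were compared from lists of adaptors, kinases, restrainers and induced genes. All 18 measured genes of the receptor-proximal complex and of the death effectors were above the mark in WT, as were all 16 kinases and NF-kB factors and all 9 deubiquitinases and restrainers, and 21 of 26 TNF-induced genes. None of these genes passed the adjusted threshold in limma. In the receptor-proximal list 10 genes were higher and 8 lower (median 0.03), from Tank, a TRAF-binding regulator, at -0.29 (SE 0.14) to Birc3, the ubiquitin ligase cIAP2, at 0.43 (SE 0.16). Birc3 read 8.02, 8.06 and 8.44 in WT and 8.71, 8.69 and 8.41 in Merit40-/-, where replicate 3 lay within the WT range. At an unadjusted p under 0.05 this list held 1 gene (5.56%), Birc3, against 4.22% of all genes.

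Among the kinases and NF-kB factors 7 were higher and 9 lower (median -0.01), from the inhibitor gene Nfkbie at -0.30 (SE 0.12) to Rel, the NF-kB subunit c-Rel, at 0.42 (SE 0.21). Nfkbie read 6.26, 6.29 and 6.09 in WT and 5.86, 5.95 and 5.93 in Merit40-/- without overlap. It was the only gene of this list (6.25%) at an unadjusted p under 0.05, against 4.22% of all genes. The genotypes were also apart for Ikbkg (NEMO), the regulatory subunit of the I-kappa-B kinase complex, at a difference of 0.26 (SE 0.13), and for Map3k14, the kinase NIK, at 0.30 (SE 0.14), both higher in Merit40-/-. These 3 of 16 genes are 18.8% of the list, against 9.05% of all genes. The deubiquitinases and restrainers showed the smallest span, from -0.08 for Cyld, which cuts lysine-63-linked and linear chains, to 0.15 for Tnip2, a partner of A20, with 6 higher and 3 lower (median 0.02). Cyld read 7.58, 7.56 and 7.62 in WT and 7.49, 7.52 and 7.49 in Merit40-/-, without overlap. It was the only such gene of the 9 (11.1%), against 9.05% of all genes. Tnfaip3, the gene of A20, differed by 0.02 (SE 0.15).

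Of the 26 TNF-induced genes 12 were higher and 14 lower, with a median of -0.03. At an unadjusted p under 0.05 in limma there were 5 (19.2%), against 4.22% of all genes. Birc3 and Nfkbie are among these 5 and were already counted in the lists above. The lists share further genes, such as Nfkbia and Traf1, so their counts are not independent. The AP-1 subunit gene Junb read 6.86, 6.52 and 6.73 in WT and 7.11, 7.41 and 7.07 in Merit40-/- (difference 0.49, SE 0.15, adjusted p = 0.999 in limma), and Bcl3, an atypical I-kappa-B protein, read 6.28, 6.34 and 6.51 and then 6.77, 6.84 and 6.68. Each was higher on every Merit40-/- array than on any WT array, which was not so for Birc3. Together with Nfkbie, which was lower, 3 of the 26 genes (11.5%) had arrays without overlap, against 9.05% of all genes. Nfkbie and the adhesion molecule gene Vcam1 were the lower ones of the 5, and the chemokine gene Ccl5 had the lowest difference of the list, -0.48 (SE 0.40), with scattered arrays. Nfkbia, the classic NF-kB target and inhibitor, differed by -0.14 (SE 0.14), and Icam1 by 0.02 (SE 0.13).

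**Figure D4:**
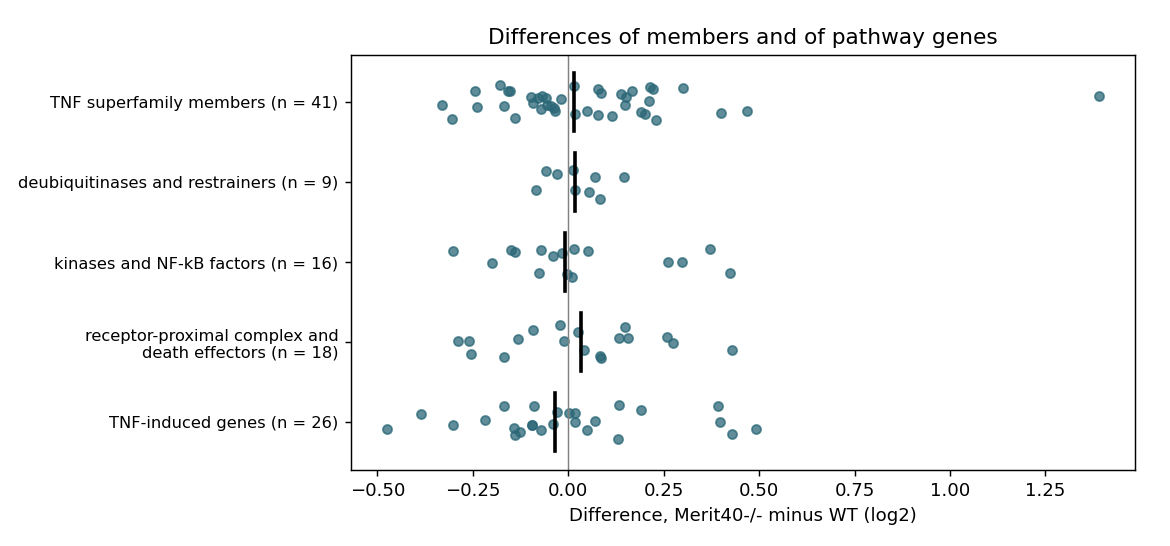
Difference between Merit40-/- and WT HSCs (horizontal axis, log2) for the 41 members and for the measured genes of 4 pathway lists, 1 point per gene with vertical jitter and a bar at the median of each list. A gene that stands in several lists, such as Birc3 or Nfkbie, has a point in each. The medians lie between -0.03 and 0.03, and Tnfsf13 at 1.39 is the point farthest from 0.

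TNF family genes that the naming rule does not cover were read as follows. The WT means of Relt, an orphan receptor (5.82), and of Edar, the ectodysplasin receptor (4.70), were above the mark, with Merit40-/- means of 6.07 and 4.77. Eda, its ligand, Eda2r and the nerve growth factor receptor Ngfr were below it, with differences of 0.48 (SE 0.22), -0.04 (SE 0.15) and 0.02 (SE 0.18). None of the 5 passed the adjusted threshold in limma.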

How the data were processed

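The authors deposited a log2 value for each probe set on each array. The submitters' processing notes name RMA, which corrects background, equalises the distributions of the arrays and combines probes, and the affy package, with no version. The build is not given in the sources used here. Of 25206 probe sets, 23185 had 1 gene symbol and 2021 were unnamed here. RefSeq (assembly GRCm38.p6) gave gene order and upstream sequences.

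All 23185 named genes were fitted with limma 3.58.1 (R 4.3.3, moderated 2-sided test of genotype alone) and adjusted by Benjamini-Hochberg over all of them with a threshold of 0.05. The fit was tested on simulated data. The labels do not say whether equal replicate numbers pair the arrays. Correlations of deviations between equally numbered arrays were -0.05, -0.0027 and 0.04. They show no shared effect, but cannot show that these arrays were handled apart. The number of arrays limits the precision.

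Every member may be named. Values on every array are given for members with an unadjusted p under 0.05, for the largest and smallest differences and for members above the mark, and for further members chosen after their values were seen. Of each pathway list the highest and lowest genes are named, with others chosen likewise. The members and lists were chosen with earlier results of these data known, and Tnfsf13 had been seen to differ. List genes not in the named table (such as Tnfsf12) were not analysed here. The alternatives tried were the replicate number as a block, eBayes with trend and robust settings, array weights, 3 scalings, 2 filters on dim genes, an ordinary linear model per gene, each array left out, and other marks of low signal.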

Additional observations from a re-analysis of the deposited data

How the results depend on the processing

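No member passed the adjusted threshold in limma under any of the 15 alternatives to the comparison of genotypes, and Babam1 was called in all but the ordinary linear model per gene, which called 0 genes over all (at an unadjusted p under 0.05 it held 990 genes, and limma 979). Tnfsf13 kept its direction in all of them, at differences of 1.28 to 1.40 with all arrays and of 1.02 to 1.84 with 1 array left out (adjusted p of 0.293 to 0.9998 in limma). With the replicate block, Tnfsf13 kept 1.39 (SE 0.34, adjusted p = 0.9997 in limma), Tnfrsf18 no longer had an unadjusted p under 0.05, and 0 members and 1 gene in all were called. Whether the numbers pair the arrays is not given by the labels. Tnfrsf13b and Tnfrsf18 kept their direction wherever they were tested. Tnfrsf18 had no unadjusted p under 0.05 without WT replicate 1 or 3 or Merit40-/- replicate 1 or 3 (0.0524 to 0.0794 in limma), and Tnfrsf13b had none without WT replicate 1 or 2 or Merit40-/- replicate 2 (0.0545 to 0.0913 in limma). Other scalings changed the sign of 0 of 41 members, and leaving out 1 array that of 3 to 9 members. The median difference of the members changed sign without WT replicate 3 (-0.0020), Merit40-/- replicate 1 (-0.03) or Merit40-/- replicate 3 (-0.0064). With the 99th percentile of the chemosensory genes as the mark, 12 members were above it in WT in place of 24, and with the median of all genes 19. With 1 WT array left out there were 23 to 24. RMA removes differences in total RNA between arrays, and a small true change in genes of low signal cannot be read from these arrays.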
